A study of Mus musculus with 27 samples.

Results

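MiR-192, miR-194, miR-215 and miR-375 are microRNAs known from endodermal organs: the first 3 are abundant in gut and liver, and miR-375 is abundant in pancreatic islets and other secretory epithelium. They were followed here as 7 mature names, printed with their sequences below and without the mouse prefix mmu- elsewhere, chosen by name from the 1900 names of 4 microRNA tables. MiR-194-5p is made from a pair of genes, so the 7 names correspond to 8 of the 2035 loci in the tables. All 8 loci were found.

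The cells were the mouse embryonic stem (ES) line CJ7, kept in serum with leukemia inhibitory factor (LIF), a cytokine that holds ES cells undifferentiated. The genotypes were wild-type, Eed-/-, Ezh2-/- and Jarid2-/-, and no other treatment or allele is given in the labels. Eed and Ezh2 are core subunits of Polycomb repressive complex 2 (PRC2), which methylates histone H3 at lysine 27 and keeps developmental genes silent, and Jarid2 is a cofactor that guides the complex. Of 27 labelled samples, 7 are small RNA samples, 1 for Jarid2-/- and 2 for each other genotype, but each genotype has 1 column of read counts. Whether a column pools samples, and whether a mutant is 1 clone, is not given in the sources used here. Genotypes could therefore not be tested against each other, and every difference below lacks a replicate check.

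MicroRNAs are cut from hairpin precursors, and either arm of a hairpin (5p or 3p) can be loaded into an Argonaute protein. The loaded strand then represses messenger RNAs that match its seed, bases 2 to 8. MiR-192 and miR-215 are known as close relatives, miR-194 is transcribed together with each of them, and all 3 are activated by hepatocyte nuclear factors in gut and liver. MiR-375 restrains insulin secretion in the islet.

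The mature sequences are printed because they show which members can act on the same targets and which reads can be told apart. Letters in capitals are the seed, and sequences are those of the deposited tables, 5′ to 3′.
mmu-miR-192-5p: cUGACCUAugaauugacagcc
mmu-miR-215-5p: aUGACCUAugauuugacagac
mmu-miR-194-5p: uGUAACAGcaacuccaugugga
mmu-miR-192-3p: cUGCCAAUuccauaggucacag
mmu-miR-194-1-3p: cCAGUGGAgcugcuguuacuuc
mmu-miR-194-2-3p: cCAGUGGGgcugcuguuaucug
mmu-miR-375-3p: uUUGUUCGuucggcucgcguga

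MiR-192-5p and miR-215-5p carry the same seed, and no other name in the tables has it. From the 5′ end of miR-192-5p they differ at 3 of 21 bases, C1A, A12U and C20A. The seeds of miR-194-5p and miR-375-3p are each unique among the 1900 names. The 3p arms of the miR-194 genes differ at 4 of 22 bases, A8G, C19U, U20C and C22G counted from the 5′ end of miR-194-1-3p, so that they tell the genes apart where miR-194-5p does not. Of the 7 names, 6 are in the RefSeq microRNA table and all 6 have the same sequence there.

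On mouse build mm9, the coordinates in the tables, miR-192-5p lies at chr19:6264857-6264877 and miR-192-3p at chr19:6264900-6264921. A copy of miR-194-5p lies upstream at chr19:6264658-6264679, 199 bp from start to start, with miR-194-2-3p at chr19:6264694-6264715. The other miR-194-5p copy is at chr1:187137204-187137225, with miR-194-1-3p at chr1:187137239-187137260. MiR-215-5p lies 285 bp beyond that copy, at chr1:187137489-187137509. MiR-375-3p is alone at chr1:74947235-74947256 on the minus strand, while all other members are on the plus strand. In the GRCm38.p6 gene table of RefSeq, used for neighbours only, the miR-194-1 and miR-215 genes lie within the span of Iars2, a mitochondrial isoleucyl-tRNA synthetase. The miR-192 and miR-194-2 genes lie between Atg2a and Ehd1, and miR-375 between Cryba2 and Cfap65.

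The hairpins of the chromosome 19 pair are shown because the results below turn on their arms. They are from RefSeq (GRCm38.p6, plus strand), with the 5p and 3p arms in capitals.
miR-192 hairpin: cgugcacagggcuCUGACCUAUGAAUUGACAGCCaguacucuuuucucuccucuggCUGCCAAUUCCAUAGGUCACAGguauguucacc
miR-194-2 hairpin: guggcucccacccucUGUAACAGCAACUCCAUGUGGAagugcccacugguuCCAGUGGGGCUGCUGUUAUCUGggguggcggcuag

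MicroRNA counts totalled 42293019 in Eed-/-, 32074712 in Ezh2-/-, 23793733 in wild-type and 8485806 in Jarid2-/-. Levels are counts-per-million of these totals (CPM) per mature locus, each 21 or 22 nucleotides long, and 0 counts were taken to allow up to 3 counts, which is 0.0709 CPM in Eed-/- and 0.354 CPM in Jarid2-/-. A range in parentheses after a value is its 95% interval by the exact binomial method. It holds counting error alone, and it treats each read as independent, which PCR copies of a molecule are not. The cells carried the microRNAs of ES cells: 7 of 8 listed ES cell microRNAs of the miR-290 and miR-302 clusters were found and summed to between 212693 and 283123 CPM, with none at 0. The liver list (both arms of miR-122) summed to between 0.118 and 0.615 CPM and the pancreas list (miR-216 and miR-217) to between 0 and 0.236 CPM. Other lists were present in every column, epithelium at 2890 to 7229 CPM, mesenchyme at 526 to 1465, blood at 2866 to 9332, neuron at 17.7 to 1599 and muscle at 2.83 to 26.0 CPM. In these bulk samples, fewer cells of a type and less RNA per cell cannot be told apart.

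**Figure D1:**
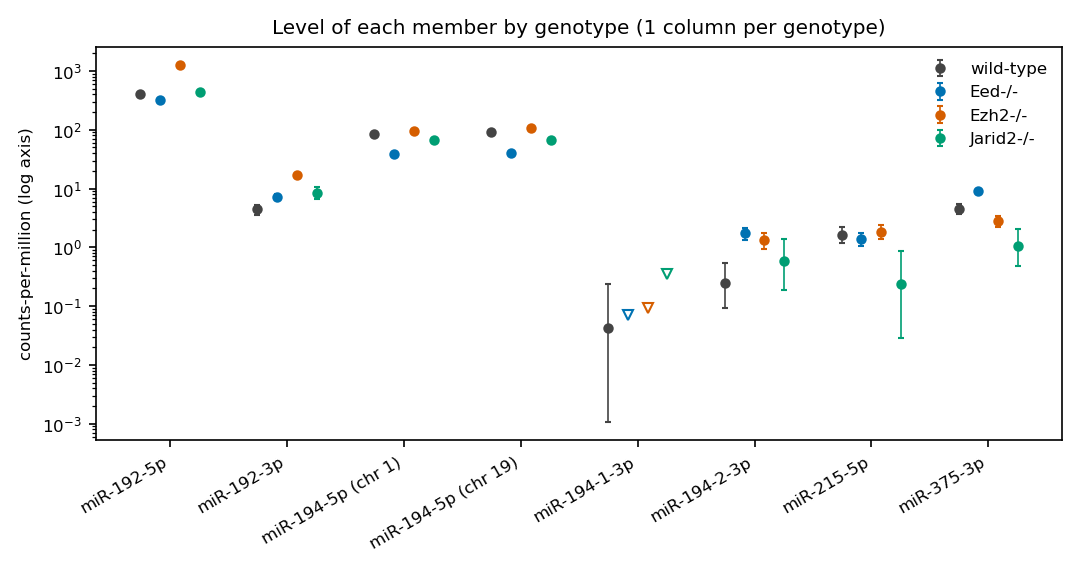
Level of each member locus in counts-per-million (log axis) in the 4 genotypes, as points with exact 95% counting intervals; open triangles stand for 0 counts and mark the level of 3 counts. MiR-192-5p is the highest locus in each genotype, at 316 to 1257 CPM, and miR-194-1-3p has 1 count in all 4 columns together.

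MiR-192-5p was the most abundant member in every genotype and was highest in Ezh2-/- cells. It had 9830 counts in wild-type cells, then 13385 in Eed-/-, 40308 in Ezh2-/- and 3702 in Jarid2-/-. This is 413 CPM (405 to 421), 316 CPM (311 to 322), 1257 CPM (1244 to 1269) and 436 CPM (422 to 451) in the same order. The Ezh2-/- column thus stood apart, while the other 3 lay between 316 and 436 CPM. By rank, miR-192-5p was locus 177 of 2035 in wild-type cells, then 196 in Eed-/-, 61 in Ezh2-/- and 150 in Jarid2-/-. It supplied 69.0% of the counts of all 8 loci in wild-type cells, then 76.3% in Eed-/-, 84.8% in Ezh2-/- and 75.2% in Jarid2-/-.

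MiR-194-5p was the next most abundant member, and it was lowest in Eed-/- cells. At the chromosome 19 locus it had 2169 counts in wild-type (91.2 CPM), 1683 in Eed-/- (39.8 CPM), 3405 in Ezh2-/- (106 CPM) and 568 in Jarid2-/- (66.9 CPM). At the chromosome 1 locus it had 1982, 1668, 3056 and 564 counts, or 83.3, 39.4, 95.3 and 66.5 CPM. The mature sequence is the same at both loci, so these counts do not show which gene the reads came from. The count at chromosome 19 was 1.09 times that at chromosome 1 in wild-type, 1.01 times in Eed-/-, 1.11 times in Ezh2-/- and 1.01 times in Jarid2-/-, and how reads matching both places were counted is not stated in the labels or file headers.

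The 3p arms, which do identify the miR-194 genes, were found almost wholly from chromosome 19. MiR-194-2-3p had 6 counts in wild-type cells, then 73 in Eed-/-, 42 in Ezh2-/- and 5 in Jarid2-/-. MiR-194-1-3p had 1 count in wild-type and 0 in the mutants, at or under the 3 counts that 0 allows. Of the reads of either 3p arm, those from chromosome 1 were 0 of 73 in Eed-/- (0 to 4.93%) and 0 of 42 in Ezh2-/- (0 to 8.41%). With 7 such reads in wild-type and 5 in Jarid2-/-, the upper bounds there were 57.9% and 52.2%, so the 2 deeper mutants alone limit the share.

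MiR-215-5p, the partner of miR-194-1 on chromosome 1, was rare. It had 39 counts in wild-type (1.64 CPM), 58 in Eed-/- (1.37 CPM), 59 in Ezh2-/- (1.84 CPM) and 2 in Jarid2-/- (0.236 CPM). At its wild-type level the Jarid2-/- column would hold 13.9 counts. MiR-215-5p therefore added 0.395% (0.281 to 0.540%) of the reads with the shared seed in wild-type and 0.431% (0.328 to 0.557%) in Eed-/-. The share was 0.146% (0.111 to 0.188%) in Ezh2-/- and 0.0540% (0.00654 to 0.195%) in Jarid2-/-. Since the sequences differ at 3 bases, miR-192-5p reads with errors could be among so few reads, and their part was not tested.

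MiR-375-3p was also rare in these ES cells and was highest in Eed-/- cells. It had 108 counts in wild-type (4.54 CPM), 378 in Eed-/- (8.94 CPM), 90 in Ezh2-/- (2.81 CPM) and 9 in Jarid2-/- (1.06 CPM). At its wild-type level the Jarid2-/- column would hold 38.5 counts. With total counts the order of the 4 levels was Eed-/-, wild-type, Ezh2-/- and Jarid2-/-. The order of wild-type and Ezh2-/- depended on the scaling. Their log2 ratio with 1 CPM added lay between -0.54 and 0.03 over the 5 scalings of the columns used below. The counting intervals of Ezh2-/- (2.26 to 3.45 CPM) and Jarid2-/- (0.485 to 2.01 CPM) did not overlap, nor did that of wild-type (3.72 to 5.48 CPM) with either.

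The passenger arms of the last 2 hairpins, which are not among the 7 names, were at the detection limit. MiR-375-5p had 1, 0, 5 and 0 counts and miR-215-3p had 1, 0, 0 and 0 counts in wild-type, Eed-/-, Ezh2-/- and Jarid2-/-.

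Each mutant was then compared with wild-type. Loci with 10 or more counts in either column are referred to as tested, which here means only that the size of the ratio was read. A tested locus was called if log2 of (CPM + 1 CPM) differed by 1 or more, a 2-fold difference. The added 1 CPM understates the differences of rare members such as miR-194-2-3p, miR-215-5p and miR-375-3p. Folds are given without it.

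In Ezh2-/- cells both arms of miR-192 were higher than in wild-type, while the difference of miR-194-5p from the neighbouring hairpin was smaller and was not called. MiR-192-5p was 3.04-fold higher (2.98 to 3.11) and miR-192-3p, the less used arm, was 3.86-fold higher (3.13 to 4.81), from 547 counts against 105. MiR-194-5p was 1.16-fold (1.10 to 1.23) higher at chromosome 19 and 1.14-fold (1.08 to 1.21) at chromosome 1 with total counts. Its log2 ratio lay between 0.22 and 0.94 at chromosome 19 and between 0.19 and 0.91 at chromosome 1 over 5 scalings of the columns, highest with TMM. MiR-194-2-3p was 5.19-fold higher (2.20 to 14.9), but its log2 ratio with 1 CPM added was 0.88, below the call. MiR-215-5p was 1.12-fold higher (0.736 to 1.73) and miR-375-3p 1.62-fold lower (1.21 to 2.16), and neither was called. The interval of miR-215-5p includes no difference.

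Of the 8 loci, 7 were tested in Ezh2-/- against wild-type and 2 were called, both higher. Over all 1000 tested loci 29.4% were called, 4.90% higher and 24.5% lower. The median log2 ratio was 0.22 for the 7 tested members and -0.44 for all tested loci. Of all tested loci, 16 had a larger ratio than miR-192-5p and 11 a larger one than miR-192-3p. Over the same scalings the log2 ratio of miR-192-5p lay between 1.60 and 2.33 and that of miR-192-3p between 1.74 and 2.41, and the sign of miR-375-3p turned with TMM scaling, from -0.54 to 0.03. TMM and median-ratio scaling each called 3 members, all higher, since miR-194-2-3p then passed. Of all tested loci 14.4% and 11% were then higher, so the low share of higher loci given above depends on the scaling. The blood list was at 9332 CPM in Ezh2-/- and 5886 CPM in wild-type and the neuron list at 1599 and 1016 CPM. The epithelium list was at 3905 and 6226 CPM, the mesenchyme list at 542 and 1465 CPM and the muscle list at 5.08 and 6.89 CPM. Within the epithelium list miR-200b-3p (407 and 91.5 CPM) and miR-200c-3p (57.6 and 8.28 CPM) were higher in Ezh2-/- and the others lower. Which cells these list sums came from, and whether those cells had a part in the miR-192 level, was not tested. The liver list was at 0.156 and 0.252 CPM in the same columns.

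In Eed-/- cells miR-194-5p was lower than in wild-type, whereas its own opposite arm was higher. MiR-194-5p was 2.29-fold lower (2.15 to 2.44) at chromosome 19 and 2.11-fold lower (1.98 to 2.26) at chromosome 1. MiR-194-2-3p was 6.84-fold higher (3.0 to 19.3), from 73 counts against 6. MiR-192-5p was 1.31-fold lower (1.27 to 1.34) and its opposite arm miR-192-3p 1.62-fold higher (1.30 to 2.05), and neither was called. MiR-375-3p was 1.97-fold higher (1.59 to 2.46), with a log2 ratio of 0.84 once 1 CPM is added, below the call. MiR-215-5p was 1.20-fold lower (0.775 to 1.82), an interval that includes no difference.

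Of the 7 tested loci in Eed-/-, 3 were called, 1 higher and 2 lower, and the 2 lower ones are the copies of 1 mature sequence. Over all 1096 tested loci 32.5% were called, 17.5% higher and 15.0% lower. The median log2 ratio was -0.15 for the tested members and 0.08 for all tested loci. The result for miR-194-5p depended on the scaling: its log2 ratio at chromosome 19 was -1.18 with total counts and -0.48, no longer called, with the reads-per-million (RPM) denominators of the authors. With these denominators 3 members were called higher and 0 lower, beside 31.9% and 9.67% of all tested loci. The sign of miR-192-5p turned with them too, from -0.38 to 0.33, and the deposited RPM values were 39.9 in wild-type and 50.1 in Eed-/-. The epithelium list was at 2890 CPM in Eed-/- and 6226 CPM in wild-type. Within it miR-200b-3p (302 and 91.5 CPM) and miR-200c-3p (70.2 and 8.28 CPM) were higher in Eed-/- and the others lower. The mesenchyme list was at 526 and 1465 CPM and the blood list at 4619 and 5886 CPM. The neuron list was at 1030 and 1016 CPM and the muscle list at 26.0 and 6.89 CPM. Which cells these list sums came from, and whether those cells had a part in the miR-194-5p level, was not tested. The direction of miR-215-5p also changed among scalings (-0.27 to 0.27). MiR-375-3p stayed positive (0.64 to 1.44), as did miR-192-3p (0.40 to 1.19) and miR-194-2-3p (0.97 to 1.39). MiR-194-2-3p was no longer called with TMM (0.99) or median-ratio scaling (0.97), which left 0 members higher and 2 lower. Of all tested loci 14.3% were then higher and 16.3% lower with TMM, and 11.9% and 17.7% with median-ratio scaling.

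In Jarid2-/- cells the rare members miR-375-3p and miR-215-5p were lower than in wild-type, and miR-192-5p was nearly level. MiR-375-3p was 4.28-fold lower (2.17 to 9.61), from 9 counts against 108. MiR-215-5p, with 2 counts against 39, had a level 6.95-fold lower, with a counting interval of 1.80 to 59.5. MiR-192-5p was 1.06-fold higher (1.02 to 1.10) and miR-192-3p 1.92-fold higher (1.40 to 2.62). MiR-194-5p was 1.36-fold lower (1.24 to 1.50) at chromosome 19 and 1.25-fold lower (1.14 to 1.38) at chromosome 1.

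Of the 8 loci, 6 were tested in Jarid2-/- and 2 were called, both lower, beside 39.2% called among all 950 tested loci with 16.3% higher and 22.8% lower. The median log2 ratio was -0.38 for the tested members and -0.17 for all tested loci. The log2 ratio of miR-375-3p stayed between -1.51 and -1.05 over the scalings. That of miR-215-5p lay between -1.13 and -0.84, and with the RPM denominators it was not called. The directions of miR-192-5p (-0.07 to 0.57) and of miR-194-5p at chromosome 19 (-0.59 to 0.05) and chromosome 1 (-0.47 to 0.17) depended on the scaling. With the RPM denominators 1 member was called higher and 1 lower, beside 26.6% and 18.5% of all tested loci. The neuron list was at 17.7 CPM in Jarid2-/- and 1016 CPM in wild-type and the blood list at 2866 and 5886 CPM. The mesenchyme list was at 682 and 1465 CPM, the muscle list at 2.83 and 6.89 CPM and the epithelium list at 7229 and 6226 CPM. Within the epithelium list miR-200a-3p and miR-141-3p were lower in Jarid2-/- and the others higher. Which cells these list sums came from, and whether those cells had a part in the member levels, was not tested. The Jarid2-/- column was the shallowest, and the low counts of miR-215-5p and miR-375-3p set the width of their intervals.

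**Figure D2:**
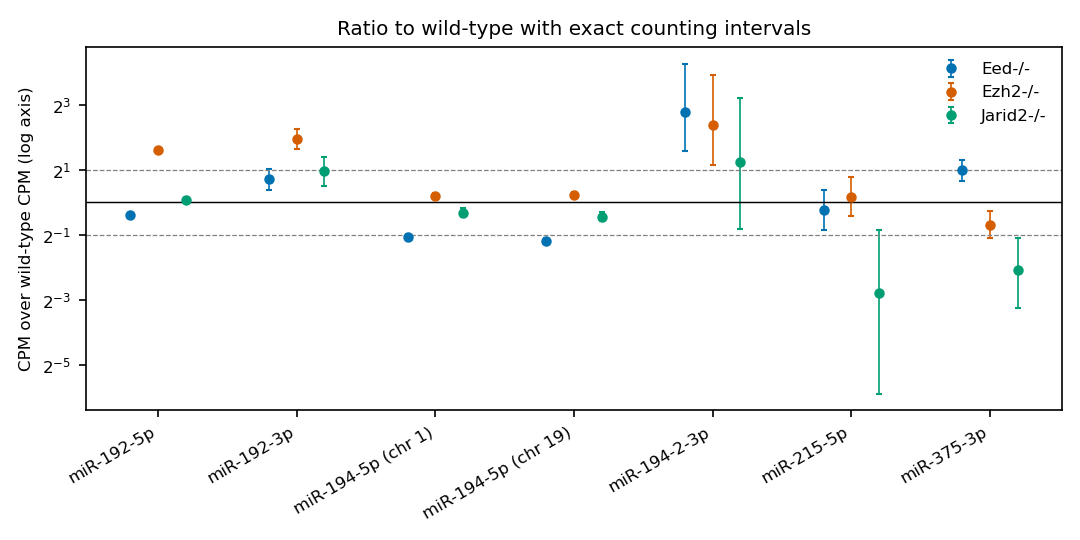
Ratio of each member's CPM to wild-type (log axis, no pseudocount) in Eed-/-, Ezh2-/- and Jarid2-/-, with exact 95% counting intervals; dashed lines mark 2-fold. MiR-192-5p and miR-192-3p lie above 2-fold in Ezh2-/-, and miR-375-3p lies near 2-fold higher in Eed-/- and 4.28-fold lower in Jarid2-/-.

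**Figure D3:**
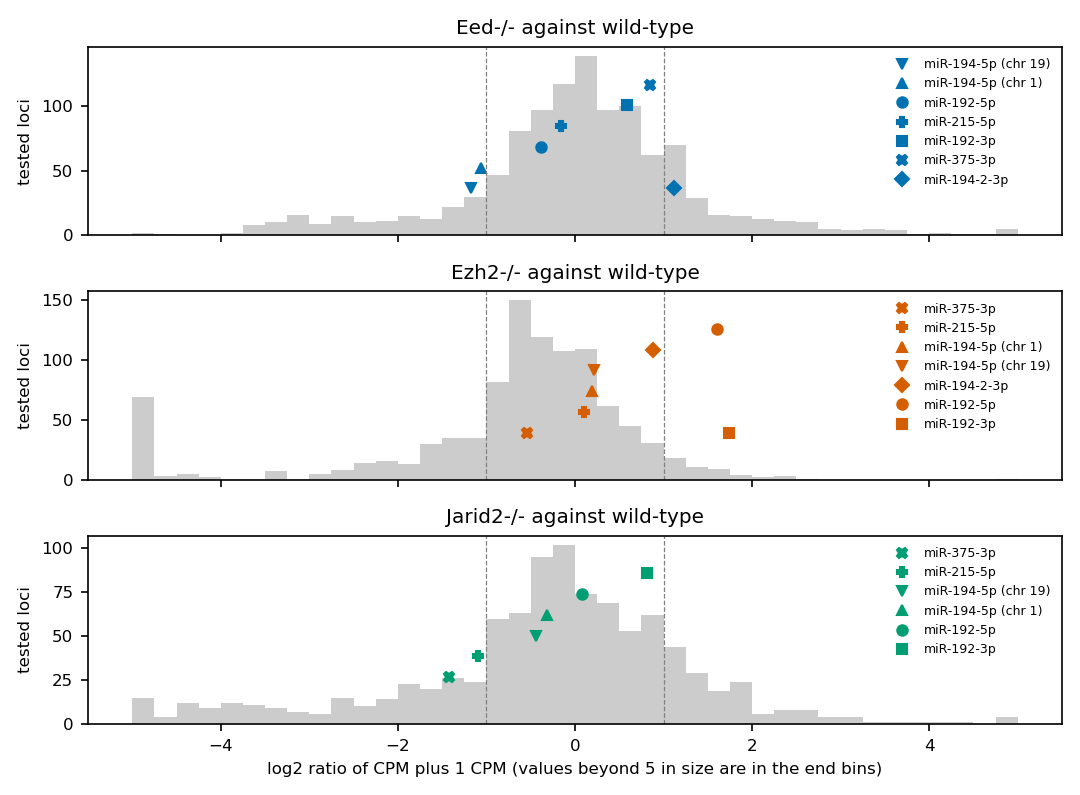
Log2 ratios (CPM plus 1 CPM) against wild-type for all tested loci as grey histograms and for the tested members as symbols, 1 panel per mutant; the height of a symbol carries no value and dashed lines mark the call. In Ezh2-/- the miR-192 arms lie in the right tail at 1.60 and 1.74, while in Eed-/- and Jarid2-/- the members lie between -1.43 and 1.12.

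The comparisons between mutants share their columns with those above. Against Ezh2-/-, Eed-/- cells had 4 of 7 tested loci lower and 1 higher, where 40.3% of 1091 tested loci were called, 4.58% lower and 35.7% higher. The lower loci were miR-192-5p at 3.97-fold (3.89 to 4.05), miR-192-3p at 2.38-fold (2.06 to 2.75) and miR-194-5p at 2.67-fold (2.52 to 2.83) and 2.42-fold (2.28 to 2.57). They are both arms of 1 hairpin and both copies of 1 mature sequence, so the 4 are not separate results. MiR-375-3p was 3.19-fold higher (2.52 to 4.05) in Eed-/-, a log2 ratio of 1.38 that was 0.69 with TMM and 0.78 with median-ratio scaling and then not called. With TMM 17.2% and with median-ratio scaling 14.7% of all tested loci were lower, against the 4.58% with totals. With the RPM denominators miR-192-3p (-0.91) and miR-194-5p at chromosome 1 (-0.99) were not called.

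Between Jarid2-/- and Eed-/- only miR-375-3p among the 7 tested loci was called, 8.43-fold lower (4.39 to 18.6) in Jarid2-/-, where 26.1% of 1073 tested loci were called, 7.18% higher and 18.9% lower. In Jarid2-/- against Ezh2-/-, 2 of 7 tested loci were called, beside 41.9% of 930 tested loci (33.0% higher and 8.92% lower), and both were lower: miR-192-5p at 2.88-fold (2.79 to 2.98) and miR-215-5p at 7.80-fold (2.07 to 65.9), from 2 counts against 59. TMM and median-ratio scaling each called 6 of the 7 lower, beside 21.6% and 19.4% of all tested loci lower. The 7 log2 ratios were below 0 in all 5 scalings. These loci include both arms of miR-192 and both copies of miR-194-5p, so the 7 are not separate results. The median of all tested loci was 0.33 with totals but -0.18 with TMM and -0.10 with median-ratio scaling.

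Ratios within a column do not depend on the scaling of the columns. The miR-192-5p count was 4.53 times (4.33 to 4.75) that of miR-194-5p at chromosome 19 in wild-type. It was 7.95 times (7.56 to 8.37) in Eed-/-, 11.8 times (11.4 to 12.3) in Ezh2-/- and 6.52 times (5.96 to 7.13) in Jarid2-/-. The ratio of these neighbours was thus above wild-type in all 3 mutants, by 1.75, 2.61 and 1.44 times. The 4 intervals, which hold counting error alone, did not overlap. All 3 comparisons share the wild-type column, so they are not independent of each other. Changes of this size were common among neighbours: of 77 pairs of adjacent hairpins within 1000 bp that had at least 500 counts for both major arms, 27.3% had a change at least as large in Ezh2-/-. The same share was 32.6% of 95 pairs in Eed-/- and 63.3% of 79 pairs in Jarid2-/-.

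The arms of miR-192 also stood in other proportions in the mutants. The 3p arm made up 1.06% (0.865 to 1.28%) of miR-192 counts in wild-type and 2.21% (1.97 to 2.47%) in Eed-/-. It made up 1.34% (1.23 to 1.46%) in Ezh2-/- and 1.91% (1.50 to 2.40%) in Jarid2-/-. The intervals of wild-type and Ezh2-/- overlapped, and those of Eed-/- and Jarid2-/- lay above wild-type. Among 244 hairpins with at least 50 counts for each arm in both columns, 32.4% had a change of the 5p to 3p ratio at least as large as miR-192 in Eed-/-, and 43.4% of 175 had one in Jarid2-/-.

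For the miR-194-2 hairpin the 3p arm was 0.276% (0.101 to 0.599%) of its counts in wild-type and 4.16% (3.27 to 5.20%) in Eed-/-. It was 1.22% (0.880 to 1.64%) in Ezh2-/- and 0.873% (0.284 to 2.02%) in Jarid2-/-. The 5p counts in these shares may include reads of the chromosome 1 gene.

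**Figure D4:**
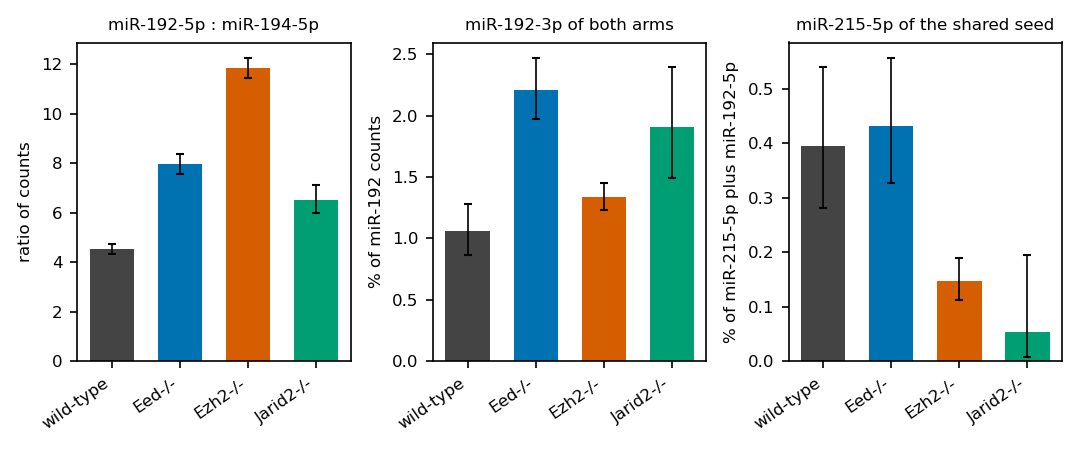
Ratio of miR-192-5p to chromosome 19 miR-194-5p counts, percent of miR-192 counts from the 3p arm, and percent of the reads with the shared seed from miR-215-5p, in each genotype, as bars from 0 with exact 95% counting intervals. The first ratio is 4.53 in wild-type and 11.8 in Ezh2-/-, the 3p share is highest in Eed-/- at 2.21%, and the miR-215-5p share is lowest in Jarid2-/- at 0.0540%.

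A list of 25 other microRNAs known from endodermal organs (27 loci) was set beside the members. It holds the liver microRNA miR-122, the pancreatic miR-216 and miR-217, miR-802, and microRNAs shared with other epithelium such as the miR-200 family, miR-7, miR-31 and miR-203. The list also holds miR-21a, miR-103, miR-107, miR-146a and miR-146b. In Eed-/- 6 of 19 tested loci were higher and 3 lower, with a median log2 ratio of 0.31, beside 32.5% called and a median of 0.08 over all tested loci. In Ezh2-/- 3 of 17 were higher and 4 lower, with a median of -0.42, beside 29.4% and -0.44 over all tested loci. The higher loci were miR-31-5p, miR-200b-3p and miR-200c-3p. The lower ones were miR-205-5p, miR-107-3p and both loci of miR-103-3p, which is 1 mature name. In Jarid2-/- 3 of 17 were higher and 3 lower, with a median of 0.37, beside 39.2% and -0.17 over all tested loci. None of miR-122, miR-216, miR-217 and miR-802 reached the 50 counts set for naming, and at such levels the added 1 CPM leaves no room for a call. Of these, named after their values were seen, miR-122-5p had 6 counts in wild-type cells, then 26 in Eed-/-, 5 in Ezh2-/- and 0 in Jarid2-/-, and miR-217-5p had 0, 10, 2 and 0. Both arms of miR-802 had 0 counts in every column.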

How the data were processed

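Small RNA of 18 to 40 nucleotides was selected on a gel and sequenced on a SOLiD instrument, per the labels' protocols. Per the submitters' processing notes, cutadapt and Bowtie were used with build mm9. Tool versions and the treatment of reads with multiple matches: not given in the sources used here. Per the file headers, each of the 4 deposited tables gives a read count and an RPM value per locus of miRBase release 20. The RPM values divide by 246316316 (wild-type), 267248746 (Eed-/-), 243895676 (Ezh2-/-) and 62259756 (Jarid2-/-) reads, and what these totals hold is not stated. Chromatin and messenger RNA measurements of the study were not analysed here.

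Columns were assigned by name. The Jarid2-/- column carries the older name Jumonji, and the wild-type column names the parental line and no mutant gene, the least direct assignment. The Eed-/- column is named HEED and was assigned because that name holds EED. Without messenger RNA values the targeted genes could not be checked. Counts were compared as CPM of the column total with Python 3.11.15 and scipy 1.17.1. The call and intervals were also run on simulated counts that hold counting error alone. Such a simulation cannot show the spread between libraries or clones, and the loci changed in it had more counts than the rare members. The planned quasi-likelihood test needs replicate columns and was replaced by ratios. The members, lists and rules were chosen with earlier results of these data known. The rule named all members, their opposite arms, organ-specific microRNAs with at least 50 counts, and the 3 loci with the nearest pattern among those with at least 100 counts. The marker and endodermal lists are summed or counted as whole lists. MicroRNAs of these lists that are named with a value or direction were picked after the values were seen. The comparison with other hairpins and the ratio with no pseudocount were added after the values were seen. Alternatives used TMM factors of edgeR 4.0.16, size factors of DESeq2 1.42.0, the RPM denominators, totals without 133 loci of the miR-290 and Gtl2-Rian-Mirg clusters, other pseudocounts and count filters, 1 value per name, and summed arms. Scaled totals were set to a common geometric mean.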

Additional observations from a re-analysis of the deposited data

How the results depend on the processing

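No paired analysis was possible because each genotype has 1 column, and for the same reason no replicate could be left out. Of 207 member ratios against wild-type recomputed under the alternatives, 190 kept their call, 17 crossed the call threshold and 0 called ratios changed sign. Ratios that stayed not called are among the 190. So are ratios that could not change: a count filter alters which loci are tested and not their ratio. Taking 1 value per name alters miR-194-5p alone among the members. The 190 are therefore not a measure of robustness. With a pseudocount of 10 CPM the members called against wild-type were 1 in Eed-/-, 1 in Ezh2-/- and 0 in Jarid2-/-. All loci called were 218 (19.9% of those tested), 186 (18.6%) and 240 (25.3%). Between mutants, 3 members were called in Eed-/- against Ezh2-/-, 0 in Jarid2-/- against Eed-/- and 1 in Jarid2-/- against Ezh2-/-. All loci called in these comparisons were 277 (25.4%), 155 (14.4%) and 248 (26.7%). With 0.1 CPM, Jarid2-/- had 3 members and 427 loci (39.8%) called against Eed-/- and 4 members against Ezh2-/- (52.9% of all loci); with no pseudocount 3 and 5 members were called (40.2% and 52.9%). With TMM and with median-ratio scaling 6 members were called in Jarid2-/- against Ezh2-/-, all lower (45.2% and 44.2% of all loci in either direction). With the RPM denominators 3 were called in Eed-/- against Ezh2-/- (42.5%) and 2 in Jarid2-/- against Eed-/- (28.9%). With at least 100 counts 1 was called in Jarid2-/- against wild-type (48.3%) and 1 against Ezh2-/- (49.7%), since fewer loci are tested. With arms summed 1 was called in Ezh2-/- against wild-type, since both miR-192 arms are then 1 value.

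Called loci split differently by scaling. Of the loci called in Ezh2-/-, 16.7% were higher with totals, 46.9% with TMM, 36.8% with median-ratio factors and 33.5% with the RPM denominators, as the median log2 ratio of all loci moved from -0.44 to 0.09, -0.07 and -0.12. In Eed-/- 53.9% were higher with totals, 40.1% with median-ratio factors and 76.8% with the RPM denominators (median 0.08, -0.06 and 0.46). In Jarid2-/- 41.7% were higher with totals and 59.0% with the RPM denominators (median -0.17 and 0.20). In Eed-/- against Ezh2-/- 88.6% were higher with totals, 56.1% with TMM and 63.0% with median-ratio factors (median 0.41, 0.01 and 0.08), and in Jarid2-/- against Ezh2-/- 78.7%, 52.1% and 56.2% (median 0.33, -0.18 and -0.10). The miR-192-5p share of miR-192-5p plus miR-194-5p was 81.9%, 88.8%, 92.2% and 86.7% (wild-type, Eed-/-, Ezh2-/-, Jarid2-/-) with the chromosome 19 locus and 70.3%, 80.0%, 86.2% and 76.6% with both loci summed; with their mean it was 92.6% in Ezh2-/-. In the same order, 52.3%, 50.2%, 52.7% and 50.2% of miR-194-5p counts stood at the chromosome 19 locus, which does not show the gene of origin. Of the 3p arm reads of both miR-194 genes, 85.7%, 100%, 100% and 100% were from chromosome 19, resting on 5 to 73 reads. How far the 3p reads follow the output of each gene was not tested. Depth limits miR-215-5p, miR-375-3p and the miR-194 3p arms most.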

Other observations

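Other microRNAs with a pattern near that of the members were sought by the distance between their 3 log2 ratios against wild-type (CPM plus 1 CPM), among 743 loci outside the 7 names with at least 100 counts in 1 column. The 3 ratios share the wild-type column. For miR-192-5p the nearest were miR-671-3p at a distance of 0.69, miR-92a-1-5p at 0.69 and miR-1191 at 0.70. These loci were about 2-fold higher in Ezh2-/-, with log2 ratios of 0.97, 0.98 and 1.08, below the 1.60 of miR-192-5p. MiR-92a-1-5p, the less used arm of a miR-17 cluster hairpin, had 29095 counts in Ezh2-/- cells and 10943 in wild-type.

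For miR-194-5p at chromosome 19 the nearest were miR-26b-3p at 0.30 and the 2 loci of miR-30c-5p at 0.43 and 0.44, and for the chromosome 1 locus they were miR-26b-3p at 0.28, miR-199b-5p at 0.49 and miR-423-3p at 0.49. MiR-26b-3p had 872 counts in Eed-/- cells and 1000 in the shallower wild-type column. For miR-375-3p the nearest were miR-29b-1-5p at 0.28, miR-3102-5p.2-5p at 0.39 and miR-322-5p at 0.55. MiR-29b-1-5p, like miR-375-3p, was higher in Eed-/- and lower in Jarid2-/-, with log2 ratios of 0.66 in Eed-/-, -0.49 in Ezh2-/- and -1.63 in Jarid2-/-.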
